A study of Mus musculus with 24 samples.

Results

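Yolk sacs and whole embryos labelled wild type (WT) were compared at embryonic day 9.5 to ask which transcripts mark each tissue. The libraries were those labelled WT in the deposited table of each tissue, 4 of the 12 yolk sac libraries and 4 of the 12 embryo libraries, joined gene by gene on their identifiers, so that 8 of 24 libraries entered. All mice were of the C57BL/6 strain, and each set of 4 held 2 libraries from a line with a Setd2 null allele and 2 from a line with a catalytic dead Setd2 allele, written CD in the labels. The groups were yolk sac null WT, yolk sac CD WT, embryo null WT and embryo CD WT, each with 2 libraries. Values of the 4 libraries of a tissue are given in the order null replicate 1, null replicate 2, CD replicate 1 and CD replicate 2. The 8 heterozygous (HE) libraries of the same lines and tissues, which carry 1 mutant Setd2 allele by their label, served as a separate set for the same measure. Setd2 encodes the methyltransferase that trimethylates lysine 36 of histone H3. The labels do not say whether a library came from 1 animal or a pool, or whether replicates were separate animals, and a p-value therefore covers the spread among these libraries alone, which may be technical. Each tissue came in a table of its own, so tissue and table cannot be told apart.

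The yolk sac at this stage is a bilayer that surrounds the embryo. Its outer layer, the visceral endoderm, is an absorptive epithelium with a brush border that takes up maternal proteins, digests them in lysosomes and secretes carrier proteins and lipoproteins, tasks that liver and gut take over later. Its inner layer is mesoderm, which forms the blood islands, the vessels of the vitelline circulation and a supporting matrix. The primitive red cells made there circulate through the embryo as well. The embryo of this stage has a patterned neural tube, migrating neural crest, somites added from the tail bud, a beating heart and early limb buds.

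The yolk sac libraries held 19488036 to 21208562 counts and the embryo libraries 24574487 to 25938731. The 10 genes with most counts took 8.18 to 8.94% of counts in yolk sacs and 3.95 to 4.04% in embryos. Mitochondrially encoded transcripts took 4.15 to 4.49% of counts in yolk sacs and 1.91 to 1.98% in embryos. Apob alone took 1.66 to 1.79% in yolk sacs and 0.00158 to 0.0339% in embryos. Between 13603 and 13954 genes reached 1 CPM (counts scaled to a common library size) in yolk sacs, and between 14708 and 14862 in embryos. The library size behind CPM includes the TMM factor, and levels are compared between genes only as FPKM, which divides by gene length.

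Some libraries stood apart from their labels or from the rest of their group. Setd2 (ENSMUSG00000044791, chromosome 9, 110532597 to 110618633, + strand, mm10) stood at 115, 126, 197 and 205 CPM in yolk sacs, against 209, 206, 201 and 228 CPM in embryos. The yolk sac libraries labelled null WT lay below every other WT library of either tissue and thus go against their label, so the null yolk sacs are named by label only and values for the CD line alone are given where results turn on them. In the HE libraries, scaled apart, Setd2 stood at 128, 133, 189 and 207 CPM in yolk sacs. The HE embryos held 152, 142, 199.9 and 207 CPM. The null yolk sacs labelled WT thus lay below those labelled HE, and the cause was not tested. The tissue difference of Setd2 was -0.44 (SE 0.06) on the log2 scale with an edgeR adjusted p of 9.24e-05, and -0.09 in the CD line alone, where it did not pass (edgeR adjusted p = 0.441). The tissues were not matched for sex in the CD line. Xist, the RNA that coats the inactive X chromosome, stood at 1542, 1647, 1571 and 1651 CPM in yolk sacs, against 1902, 1928, 0.865 and 1.20 CPM in embryos, and the Y-linked Ddx3y at 0.227, 0.0564, 0 and 0.157 CPM in yolk sacs, against 0.139, 0, 64.6 and 69.0 CPM in embryos. The CD embryos alone carried Y transcripts, so sex and tissue cannot be told apart within the CD line, whereas all 4 null libraries carried Xist. Embryo CD WT replicate 2 held more endoderm transcripts than the other embryos, and yolk sac CD WT replicate 2 more red cell transcripts than the other yolk sacs. Fold changes of named genes that moved by more than 1.5 times without a single library are given without it as well, apart from bounds and counting ratios. Where that leaves its line's other library of the same tissue at 0, the value depends on the prior count and is no bound, which holds for such values of Aldh1a2, Apoa4, Cldn9, Myh6, Prl3d1, Ptprc, Sox2 and T, for Meox1 without yolk sac null WT replicate 2 and for S100g without embryo null WT replicate 2.

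Most genes differed between the tissues. Of 18755 genes tested, 14022 (74.8%) passed an edgeR adjusted p of 0.05, with 6740 higher in yolk sac (35.9%) and 7282 lower (38.8%). These shares are the background for every count of list or family members in the main fit below. With a change of 2-fold or more as well, 3821 were higher (20.4%) and 4224 lower (22.5%). The 4 yolk sac libraries lay wholly above the 4 embryo libraries for 6209 genes (33.1%) and wholly below them for 6708 (35.8%), together 68.9%. Genes named below were in large part chosen for a small p or a large change. A lack of overlap in them largely follows from that choice and is no separate support. The median log2 fold change over all genes tested was -0.07. Large differences were common: 1254 called genes were higher by 8-fold or more and 1542 lower, and 522 were higher by 32-fold or more and 753 lower. Scaling by library totals alone lowered the median to -0.39, a shift of -0.31, and gave 5091 higher and 9536 lower calls, so that 34.8% of calls were higher in place of 48.1%. Positive log2 fold changes under the size of this shift turn negative with that scaling.

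The HE libraries, which share no library with the WT comparison, gave 6759 genes higher (35.7% of 18945 tested) and 7466 lower (39.4%), together 75.1%. At 2-fold or more 8101 HE genes passed (42.8%), with 20.2% higher and 22.6% lower. Of the WT calls, 13767 were tested in HE libraries and 99.32% of them had the same direction. Calls of the same direction in both sets numbered 12705, which is 90.61% of the WT calls and 89.31% of the HE calls. A single gene was called in opposite directions, Ido2, an enzyme of tryptophan breakdown. In the WT libraries it stood at 0.682, 0.789, 0.441 and 0.525 CPM in yolk sacs, against 0.902, 1.19, 1.15 and 1.23 CPM in embryos. The yolk sacs lay below the embryos, a log2 fold change of -0.90 (SE 0.28), and the WT call was lost without embryo null WT replicate 2 (-0.78). It was named after its values were seen.

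The defining markers separated the tissues as labelled. Afp, which encodes alpha-fetoprotein, the main serum protein of early development, stood at 9668, 8704, 6699.5 and 6582 CPM in yolk sacs, against 10.2, 13.3, 15.7 and 61.2 CPM in embryos. Apob, the structural protein of lipoproteins, stood at 19772, 18473, 20104 and 18458 CPM in yolk sacs, against 14.1, 15.3, 35.4 and 311 CPM in embryos. Cubn, the endocytic receptor cubilin, stood at 10870, 9816, 11717 and 10066 CPM in yolk sacs, against 2.91, 3.34, 14.5 and 196 CPM in embryos. In each of the 3 genes every yolk sac library lay above every embryo library, and among embryos CD WT replicate 2 was the highest by a wide margin. The log2 fold changes were 8.52 (SE 0.43), 8.57 (SE 0.66) and 9.19 (SE 0.79), and without embryo CD WT replicate 2 they were 9.17, 9.73 and 10.63. In the CD line alone the 3 values were 7.44, 6.80 and 6.69, and in the HE libraries 9.64, 10.11 and 11.24. Ttr, the thyroid hormone and retinol carrier transthyretin, stood at 1664, 1494, 1615 and 1371 CPM in yolk sacs, against 2.15, 2.70, 4.68 and 28.7 CPM in embryos, a log2 fold change of 7.92 (SE 0.50) with embryo CD WT replicate 2 and of 8.84 without it. The neural markers went the other way. Pax6, a transcription factor of the neural tube and eye, stood at 0, 0.0564, 0 and 0 CPM in yolk sacs, against 46.5, 45.9, 46.1 and 44.1 CPM in embryos, with 1 count over the 4 yolk sac libraries and 3315-fold lower in yolk sac (95% counting interval 595 to 130920), an interval that covers counting error alone, here and wherever one is given. Tubb3, the neuronal tubulin, stood at 0.398, 0.282, 0.386 and 0.682 CPM in yolk sacs, against 26.4, 24.2, 16.8 and 13.3 CPM in embryos (log2 fold change -5.49, SE 0.20). Every yolk sac library lay below every embryo library for both. In bulk tissue fewer cells of a type and less RNA per cell cannot be told apart, here and below.

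**Figure D1:**
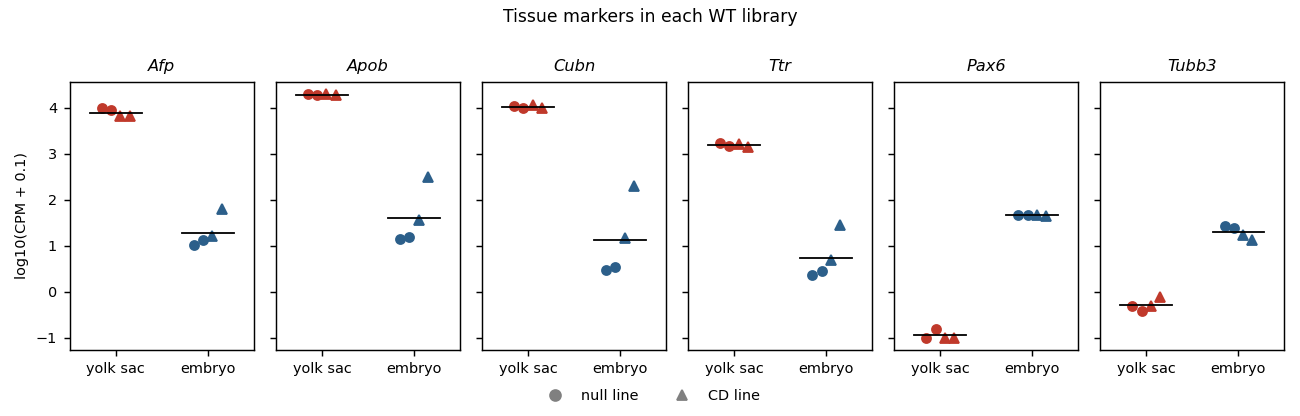
Levels of the 6 tissue markers in each WT library, as log10(CPM + 0.1) on the vertical axis, with yolk sac left of embryo, circles for the null line, triangles for the CD line and a line at the mean of the logged values. The 4 visceral endoderm markers lie higher in every yolk sac library, embryo CD WT replicate 2 is the highest embryo for all 4 of them, and Pax6 and Tubb3 lie higher in every embryo library.

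Serum carrier proteins made by the visceral endoderm were among the largest differences. Of 16 tested members of 18 on the carrier list, 14 were higher in yolk sac and 2 lower, where 35.9% and 38.8% of all tested genes were, with a median log2 fold change of 4.18. Without embryo CD WT replicate 2, 12 were higher and 2 lower, with 34.1% and 35.5% of all genes tested there. Their summed level was 15378, 13995, 12109 and 11274 CPM in yolk sacs, against 135, 152, 159 and 257 CPM in embryos. Most of the yolk sac sum came from the marker Afp, at 9668, 8704, 6699.5 and 6582 CPM, so it says little of the other members. Rbp4, the retinol carrier of serum, stood at 1907, 1866, 2066 and 1549.9 CPM in yolk sacs, against 2.39, 4.84, 9.15 and 29.7 CPM in embryos (log2 fold change 7.78, SE 0.39). Trf, the iron carrier transferrin, stood at 1545, 1377, 1237 and 1298 CPM in yolk sacs, against 5.30, 5.80, 7.10 and 15.7 CPM in embryos (log2 fold change 7.42, SE 0.23), with 63.5% of its exon bases shared with another annotated gene. Spp2, a secreted phosphoprotein, averaged 194 ± 39.2 CPM in yolk sacs and 0.610 ± 0.917 CPM in embryos (SD, n = 4 each), a log2 fold change of 9.10 (SE 0.32) with embryo CD WT replicate 2 and of 10.17 without it. The yolk sac libraries did not overlap the embryo libraries for any of these genes. Alb, the serum albumin of the later liver, stood at 0.682, 0.676, 0.110 and 0.315 CPM in yolk sacs, against 0.173, 0.136, 0.144 and 0.0374 CPM in embryos. It passed (log2 fold change 1.64, SE 0.56), but the libraries overlapped, all were under 1 CPM, and the call was lost when any of 6 of the 8 libraries was left out, with a log2 fold change of 1.18 without yolk sac CD WT replicate 2 and of 2.23 without embryo CD WT replicate 1. The 2 members that were lower in yolk sac were Igfbp2, which binds insulin-like growth factors, at 33.7 and 93.1 CPM on average in yolk sacs and embryos (log2 fold change -1.47, SE 0.12), and Vtn, the adhesive serum protein vitronectin, at 0.837 and 4.81 CPM (log2 fold change -2.58, SE 0.27).

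Afp and Alb are neighbours on chromosome 5 and are both liver genes, yet their levels per length were 2107 ± 407 and 0.171 ± 0.109 FPKM in yolk sacs (mean ± SD, n = 4).

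Genes of lipoprotein assembly were higher in yolk sac as a group. Of 22 tested members, 19 were higher and 2 lower, the median log2 fold change was 6.53, and the summed level was 27588, 25593, 27984 and 25630 CPM in yolk sacs, against 234, 227, 276 and 728 CPM in embryos. Most of the yolk sac sum came from the marker Apob, at 19772, 18473, 20104 and 18458 CPM. Apoa4, an apolipoprotein of gut and liver particles, stood at 319, 298, 284 and 228 CPM in yolk sacs, against 0.0347, 0, 0.108 and 0.822 CPM in embryos. This was the second largest positive difference among the genes named by size (log2 fold change 11.42, SE 0.28, 12.44 without embryo CD WT replicate 2). Its exons share 69.8% of their bases with another annotated gene. Apoa1, the main protein of high density lipoprotein, stood at 2536, 2279.9, 2556 and 2375 CPM in yolk sacs, against 0.902, 1.02, 4.40 and 41.6 CPM in embryos (log2 fold change 9.01, SE 0.65). Apoe averaged 2620.2 ± 122 CPM in yolk sacs and 51.9 ± 32.4 CPM in embryos (SD, n = 4 each; log2 fold change 5.75, SE 0.26). Mttp, the transfer protein that loads lipid onto APOB, averaged 691 ± 68.3 CPM in yolk sacs and 15.9 ± 8.10 CPM in embryos (log2 fold change 5.50, SE 0.22). Soat2, which esterifies cholesterol for export, had a log2 fold change of 6.78 (SE 0.32), and Scarb1, a receptor for high density lipoprotein, of 2.85 (SE 0.08). All of these lay higher in every yolk sac library. Without embryo CD WT replicate 2 the log2 fold change was 10.21 for Apoa1 and 7.47 for Soat2, and without embryo null WT replicate 1 it was 12.43 for Apoa4. The counts for the list were the same, 19 higher and 2 lower, in the CD line alone, where 29.9% of all genes were higher and 30.7% lower, and without embryo CD WT replicate 2.

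The uptake machinery of the visceral endoderm showed the same direction. Of 16 tested members of the endocytic list, 14 were higher, 0 were lower, and the median log2 fold change was 3.28. Amn encodes amnionless, the partner that carries cubilin to the membrane, and stood at 195, 143, 154 and 129 CPM in yolk sacs, against 0.416, 0.171, 0.504 and 4.30 CPM in embryos (log2 fold change 7.52, SE 0.42). Lrp2, the receptor megalin, stood at 1943, 1656, 2070.2 and 1636 CPM in yolk sacs, against 132, 133, 158 and 251 CPM in embryos (log2 fold change 3.47, SE 0.15). Dab2, the adaptor that links these receptors to clathrin, averaged 2805 ± 285 CPM in yolk sacs and 109 ± 37.4 CPM in embryos (SD, n = 4 each; log2 fold change 4.71, SE 0.17). Folr1, a folate receptor, had a log2 fold change of 6.62 (SE 0.27). Fcgrt, the neonatal Fc receptor that carries antibody, stood at 83.9, 80.7, 52.5 and 53.8 CPM in yolk sacs, against 2.77, 2.63, 2.74 and 1.87 CPM in embryos (log2 fold change 4.72, SE 0.11). Cltc, the clathrin heavy chain present in all cells, had a log2 fold change of 2.08 (SE 0.07). The libraries of the tissues did not overlap for any of these receptors and adaptors, and embryo CD WT replicate 2 was the highest embryo for Amn and Lrp2. Without embryo CD WT replicate 2 the log2 fold changes of Amn and Folr1 were 8.64 and 7.23. Per length, Cubn reached 637 ± 45.3 FPKM, Dab2 342 ± 31.7 and Lrp2 97.9 ± 10.6 in yolk sacs, against 3.97 ± 6.91, 16.4 ± 5.35 and 11.2 ± 3.56 FPKM in embryos (mean ± SD, n = 4 each).

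Every tested gene of the lysosomal list, 24 of 24, was higher in yolk sac, with a median log2 fold change of 2.72 and a range of 0.64 to 6.52. The summed level was 9791, 8998, 9976 and 8710.2 CPM in yolk sacs, against 1103, 1110.3, 1139 and 1265 CPM in embryos. Ctsh, the protease cathepsin H, stood at 547, 506, 606 and 482 CPM in yolk sacs, against 3.61, 3.21, 3.67 and 16.3 CPM in embryos (log2 fold change 6.52, SE 0.37, 7.25 without embryo CD WT replicate 2). Ctsc, the cathepsin that activates other proteases, averaged 657 ± 29.98 CPM in yolk sacs and 11.8 ± 3.06 CPM in embryos (SD, n = 4 each; log2 fold change 5.81, SE 0.14). Lgmn, an asparagine-specific protease, had a log2 fold change of 4.92 (SE 0.16), and Ctsb, cathepsin B, of 3.85 (SE 0.06). The smallest differences were those of Psap, the precursor of lipid-digesting cofactors (log2 fold change 0.64, SE 0.05), and Npc2, which takes cholesterol out of lysosomes (log2 fold change 0.89, SE 0.06). A change of 2-fold or more was met by 21 of the 24 members. Yolk sacs did not overlap embryos for any member named here.

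Transcripts of blood clotting and fibrinolysis factors were higher in yolk sac. Of 18 tested members of 22 listed, 16 were higher and 2 lower, with a median log2 fold change of 6.30. Fga, the alpha chain of fibrinogen, stood at 666, 596, 469.9 and 523 CPM in yolk sacs, against 0.173, 0.0341, 0.432 and 4.26 CPM in embryos (log2 fold change 10.12, SE 0.45, 11.34 without embryo CD WT replicate 2). Fgb, the beta chain, stood at 459.8, 404, 350.2 and 378 CPM in yolk sacs, against 1.18, 2.08, 1.33 and 6.31 CPM in embryos (log2 fold change 7.31, SE 0.33). Fgg, the gamma chain, stood at 296, 275, 198 and 209 CPM in yolk sacs, against 0.485, 0.239, 0.504 and 2.47 CPM in embryos (log2 fold change 8.36, SE 0.28). Every yolk sac lay far above every embryo for the 3 chains, and embryo CD WT replicate 2 was the highest embryo. Without that library the log2 fold changes of Fgb and Fgg were 8.08 and 9.13 and that of Plg, described next, was 7.93, while that of Fga was 10.85 without embryo null WT replicate 1. The 3 genes lie together on chromosome 3, and per length they reached 168 ± 25.7, 93.7 ± 10.9 and 105 ± 20.9 FPKM in yolk sacs (mean ± SD, n = 4). F2, which encodes prothrombin, averaged 65.2 ± 8.83 CPM in yolk sacs and 0.450 ± 0.233 CPM in embryos (SD, n = 4 each; log2 fold change 7.23, SE 0.15), and Plg, the precursor of plasmin, 86.4 ± 9.17 CPM in yolk sacs and 0.712 ± 0.748 CPM in embryos (log2 fold change 7.19, SE 0.27). Kng1, a kininogen of the contact pathway, stood at 45.5, 39.6, 28.04 and 26.4 CPM in yolk sacs, against 0, 0, 0 and 0.0747 CPM in embryos, with 2 counts over the 4 embryo libraries and a ratio of 1954-fold (95% counting interval 541 to 16136). The contact factor F12 had 5 counts over the yolk sac libraries and 1 over the embryo libraries, F11 2 and 2, and F9 8 and 0, all under the filter on low counts. Serpinf1, an inhibitor of vessel growth, was lower in yolk sac, at 2.67 and 26.6 CPM on average in yolk sacs and embryos (log2 fold change -3.35, SE 0.27).

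The epithelial genes were mostly higher. Of 28 members of the brush border and junction list, 25 were higher and 3 lower, with a median log2 fold change of 2.94. Vil1, the actin bundler villin, stood at 377, 328, 379.7 and 315 CPM in yolk sacs, against 1.39, 1.40, 2.77 and 6.76 CPM in embryos (log2 fold change 7.09, SE 0.22). Pdzk1, a scaffold for apical transporters, averaged 236 ± 19.2 CPM in yolk sacs and 0.847 ± 1.21 CPM in embryos (log2 fold change 8.72, SE 0.34), with 41.7% of its exon bases shared with another gene. Cdhr2, a cadherin that links microvilli, averaged 249 ± 15.9 CPM in yolk sacs and 1.68 ± 1.41 CPM in embryos (log2 fold change 7.41, SE 0.23). Cldn2, a pore-forming claudin of tight junctions, averaged 384 ± 39.9 CPM in yolk sacs and 2.56 ± 3.004 CPM in embryos (SD, n = 4 each; log2 fold change 7.66, SE 0.36). Without embryo CD WT replicate 2 the log2 fold changes of Pdzk1 and Cldn2 were 9.81 and 8.39. Cdh1, the epithelial cadherin, which epithelia of the embryo also express, stood at 625, 548, 591 and 542 CPM in yolk sacs, against 53.4, 54.7, 62.4 and 92.4 CPM in embryos (log2 fold change 3.16, SE 0.12). The log2 fold change was 1.62 (SE 0.09) for the adhesion gene Epcam, 1.88 (SE 0.12) for the keratin Krt8 and 0.78 (SE 0.11) for Krt19, which did not pass in the CD line alone. Grhl2, a regulator of surface ectoderm and neural tube closure, was lower in yolk sac, at 4.04, 3.16, 4.13 and 3.04 CPM in yolk sacs, against 16.5, 16.3, 19.7 and 19.3 CPM in embryos (log2 fold change -2.32, SE 0.13). Cldn9, another claudin, averaged 0.168 and 2.79 CPM in yolk sacs and embryos (log2 fold change -4.10, SE 0.58, -6.84 without yolk sac null WT replicate 2 and -6.32 without yolk sac CD WT replicate 1). The tissues did not overlap for any of these epithelial genes, as for 68.9% of all genes tested.

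Transporters and detoxifying enzymes followed. Of 302 tested solute carrier genes, 193 were higher and 68 lower, and the median log2 fold change was 0.92. Slc40a1, the iron exporter ferroportin, averaged 197 ± 12.2 CPM in yolk sacs and 7.92 ± 1.35 CPM in embryos (SD, n = 4 each; log2 fold change 4.64, SE 0.10), and the zinc importers Slc39a4 and Slc39a5 had log2 fold changes of 6.67 (SE 0.21) and 6.70 (SE 0.29), the second being 7.42 without embryo CD WT replicate 2. Slc22a2, an importer of organic cations, averaged 22.9 ± 1.76 CPM in yolk sacs and 0.150 ± 0.0483 CPM in embryos (log2 fold change 7.25, SE 0.17). The lower carriers included Slc8a1, the sodium and calcium exchanger of heart muscle, at 3.64 and 134 CPM on average in yolk sacs and embryos (log2 fold change -5.22, SE 0.12), and Slc38a1, a glutamine importer (log2 fold change -2.17, SE 0.09). Among ABC pumps, 25 of 44 were higher and 14 lower, against 35.9% and 38.8% of all genes. Abcc2, which exports conjugated bile pigments, averaged 297 ± 21.3 CPM in yolk sacs and 2.50 ± 3.14 CPM in embryos (log2 fold change 7.70, SE 0.31). Of the conjugating enzymes, 8 of 9 tested glucuronosyltransferases (22 listed) were higher and 1 lower, and 10 of 16 tested glutathione transferases were higher and 2 lower. All 9 glucuronosyltransferases averaged 1 CPM or less in embryos. The filter on low counts thus favoured members that are high in yolk sac, and their count is no separate support. Gstm1, whose close paralogues may share reads with it, averaged 374 ± 67.9 CPM in yolk sacs and 10.6 ± 1.39 CPM in embryos (log2 fold change 5.13, SE 0.13). Iron and metal genes were higher in 15 and lower in 2 of 18 cases. Mt1, a metal-binding metallothionein, stood at 169, 144, 79.2 and 87.6 CPM in yolk sacs, against 3.99, 3.99, 4.43 and 4.56 CPM in embryos (log2 fold change 4.75, SE 0.09), and the ferritin chain Fth1 at 1066, 922, 1133 and 1308 CPM in yolk sacs, against 206, 209, 231 and 281 CPM in embryos (log2 fold change 2.25, SE 0.08). Heph and Cp, ferroxidases that serve iron export, were the 2 lower members, with log2 fold changes of -1.66 (SE 0.08) and -4.20 (SE 0.44), the second being -4.89 without yolk sac null WT replicate 2. The tissues did not overlap for any transporter or metal gene named here.

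Genes of fat oxidation and of general glycolysis differed in opposite directions. Of 23 tested genes of fatty acid oxidation, ketogenesis and gluconeogenesis, 22 were higher in yolk sac, 0 were lower (1 without yolk sac CD WT replicate 2) and the median log2 fold change was 2.13. The carnitine transferase Cpt1a, which admits fatty acids to mitochondria, averaged 11.3 ± 3.37 CPM in yolk sacs and 1.30 ± 0.591 CPM in embryos (SD, n = 4 each; log2 fold change 3.14, SE 0.24). Acadm, the medium-chain dehydrogenase of mitochondria, had a log2 fold change of 2.13 (SE 0.07). Slc2a2, the glucose transporter of liver and gut, stood at 722, 665, 723 and 672 CPM in yolk sacs, against 0.347, 0.136, 0.973 and 10.2 CPM in embryos (log2 fold change 9.21, SE 0.55, 10.48 without embryo CD WT replicate 2). These 3 genes had no overlap between the tissues. The gluconeogenic Pck1 averaged 0.652 and 0.00901 CPM in yolk sacs and embryos, and G6pc, the enzyme that releases free glucose, had 0 counts over the yolk sac libraries and 1 over the embryo libraries.

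Of 23 tested glycolysis genes, 7 were higher and 14 lower, against 35.9% and 38.8% of all genes, with a median log2 fold change of -0.74. The higher ones included transporters and a liver-type isozyme. Slc2a3, a high-affinity glucose transporter, stood at 5669, 4971, 6636 and 4917 CPM in yolk sacs, against 544, 640.1, 799.9 and 1420.2 CPM in embryos (log2 fold change 2.77, SE 0.18). Slc16a1, a carrier of lactate, averaged 1894 ± 359.5 CPM in yolk sacs and 250.5 ± 56.3 CPM in embryos (log2 fold change 2.93, SE 0.15). Pklr, the liver and red cell pyruvate kinase, had a log2 fold change of 3.77 (SE 0.35), with 22% of its exon bases shared with another gene. Pkm, the pyruvate kinase of other tissues, stood at 881, 921, 887 and 789.6 CPM in yolk sacs, against 2383, 2433, 2355 and 2815 CPM in embryos (log2 fold change -1.52, SE 0.07). The log2 fold change was -1.78 (SE 0.11) for Hk2, which phosphorylates glucose, -1.38 (SE 0.05) for Eno1, -1.10 (SE 0.06) for Pgk1 and -0.74 (SE 0.06) for Ldha, which makes lactate. No glycolysis gene named here had overlapping libraries. Cholesterol synthesis was lower for most members, 15 of 24, with 7 higher and a median log2 fold change of -0.85. Hmgcs1, an early enzyme of the pathway, stood at 89.7, 89.7, 81.2 and 80.8 CPM in yolk sacs, against 264, 289.5, 305 and 274 CPM in embryos (log2 fold change -1.73, SE 0.06). Against that direction, Stard4, a cholesterol carrier protein, had a log2 fold change of 1.86 (SE 0.08).

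**Figure D2:**
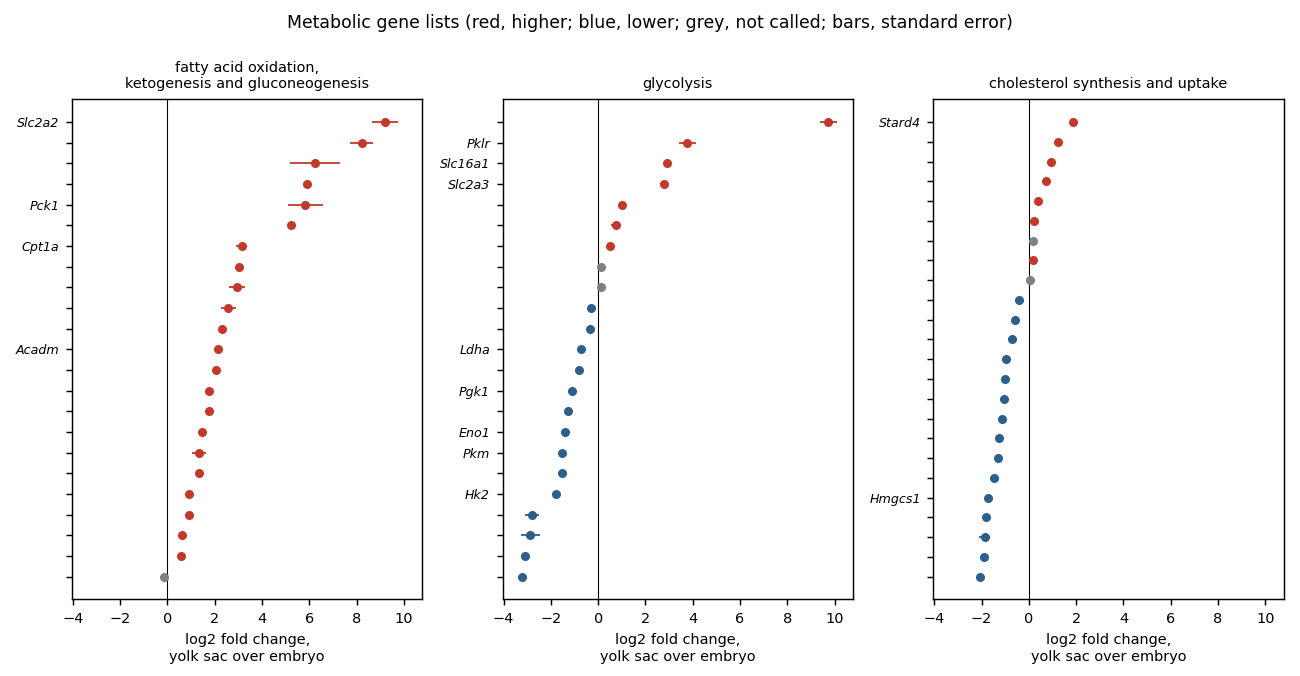
Log2 fold change of yolk sac over embryo with its standard error for each tested gene of 3 metabolic lists, sorted by size, with genes called higher in red, called lower in blue and not called in grey. No gene of the fatty acid list is called lower, while the glycolysis and cholesterol lists lie mostly below 0 with Pklr, Slc16a1, Slc2a3 and Stard4 near their upper ends. Genes described in the text are labelled.

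Transcription factors of endoderm were higher in yolk sac for 18 of 27 tested members and lower for 5, with a median log2 fold change of 2.06. Hnf4a, the central factor of liver-type endoderm, stood at 550.2, 458, 561 and 469 CPM in yolk sacs, against 1.21, 0.853, 2.63 and 9.08 CPM in embryos (log2 fold change 7.69, SE 0.32). Creb3l3, which acts on lipoprotein genes, averaged 118 ± 17.7 CPM in yolk sacs and 0.429 ± 0.438 CPM in embryos (SD, n = 4 each; log2 fold change 8.35, SE 0.25, 9.04 without embryo CD WT replicate 2), and Rhox5, an X-linked homeobox gene of extraembryonic tissue, 287 ± 23.6 CPM in yolk sacs and 2.10 ± 1.33 CPM in embryos (log2 fold change 7.30, SE 0.14). Every yolk sac lay above every embryo for these 3 factors. Gata4, which also serves the gut and heart of the embryo, stood at 104, 86.4, 111 and 87.2 CPM in yolk sacs, against 26.7, 25.7, 29.5 and 39.5 CPM in embryos (log2 fold change 1.69, SE 0.11). Foxa2, which also marks floor plate and notochord, had a log2 fold change of 2.06 (SE 0.11). Gata6, at 28.03 and 30.6 CPM on average in yolk sacs and embryos, did not pass (log2 fold change -0.11, SE 0.08). Cdx1, a posterior homeobox factor of tail and hindgut, went the other way, at 0.114, 0.113, 0 and 0 CPM in yolk sacs, against 5.62, 5.39, 6.74 and 18.2 CPM in embryos, with 4 yolk sac counts and 160-fold lower in yolk sac (95% counting interval 62.5 to 587).

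**Figure D3:**
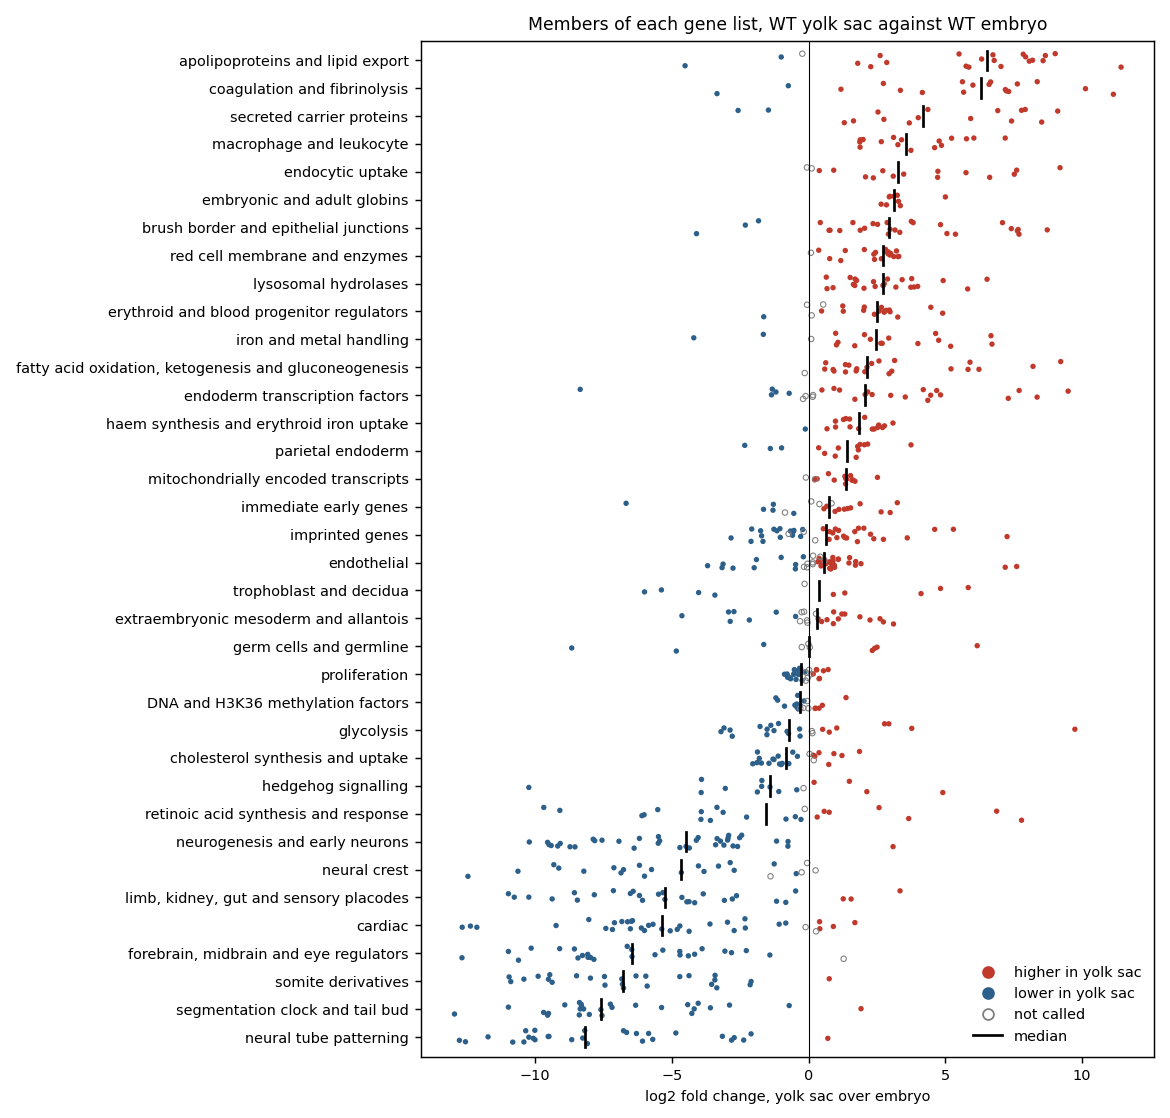
Log2 fold change of yolk sac over embryo for every tested member of each gene list, 1 point a gene, with genes called higher in red, called lower in blue, not called as open circles and the list median as a bar; lists are sorted by median. Apolipoprotein and coagulation lists have the highest medians, and the tail bud and neural tube patterning lists the lowest.

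Red cell transcripts were higher in yolk sac, with wide spread between libraries. All 9 tested globin genes were higher, with a median log2 fold change of 3.12, or 2.75 without yolk sac CD WT replicate 2, where all 9 were higher, against 34% of all genes higher and 37.7% lower. Their summed level was 13561, 14949, 9317 and 28447 CPM in yolk sacs, against 1818, 2689, 2020.5 and 1018 CPM in embryos. Yolk sac CD WT replicate 2 held the most and CD WT replicate 1 the least of the yolk sacs, yet every yolk sac exceeded every embryo. Hbb-y, an embryonic beta-like globin, stood at 4305, 4952, 2554 and 8599 CPM in yolk sacs, against 551, 851, 562 and 145 CPM in embryos (log2 fold change 3.35, SE 0.48, 2.79 without yolk sac CD WT replicate 2 and 4.0 without embryo CD WT replicate 1). Hba-x, the embryonic alpha-like chain, stood at 4922, 5324, 3520 and 11099 CPM in yolk sacs, against 602, 849, 684 and 405 CPM in embryos (log2 fold change 3.28, SE 0.34, 2.76 without it). Hbb-bh1, the other main embryonic beta-like chain, averaged 4549 ± 2059 CPM in yolk sacs and 633 ± 182 CPM in embryos (SD, n = 4 each; log2 fold change 2.84, SE 0.29), and globin paralogues may share reads. Per length, Hbb-y, Hbb-bh1 and Hba-x reached 7239.7 ± 3628, 6661 ± 3034 and 5949 ± 3217 FPKM in yolk sacs, and the adult-type Hba-a1 and Hbb-bs 631 ± 341 and 36.02 ± 10.8 FPKM.

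The rest of the red cell programme followed the globins. Of 17 haem and iron uptake genes, 16 were higher and 1 lower, a call that was lost when any library but yolk sac CD WT replicate 2 was left out (median log2 fold change 1.83), and 19 of 20 membrane and enzyme genes were higher with none lower (median log2 fold change 2.73). Alas2, the erythroid enzyme that starts haem synthesis, stood at 141, 179, 117 and 325 CPM in yolk sacs, against 23.4, 30.1, 24.4 and 12.4 CPM in embryos (log2 fold change 3.08, SE 0.32, 2.62 without yolk sac CD WT replicate 2). Its promoter is shown because it holds the letters AGATAA, a short form of the site bound by GATA factors, searched on both strands and here in capitals. The sequence is from RefSeq (GRCm38.p6), 5′ to 3′ on the strand of the gene, from 250 bases before to 50 bases after the annotated start.
Alas2 promoter (chrX:150547167-150547466, + strand): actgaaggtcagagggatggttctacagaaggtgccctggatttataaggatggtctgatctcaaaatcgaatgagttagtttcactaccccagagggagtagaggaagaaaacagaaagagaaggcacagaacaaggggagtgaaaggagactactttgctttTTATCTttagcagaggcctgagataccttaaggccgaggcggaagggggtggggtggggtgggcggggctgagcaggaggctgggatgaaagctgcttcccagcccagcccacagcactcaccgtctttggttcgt
The match began 86 bases before the start, and 14.5% of the 851 genes with a promoter in the RefSeq table among 1254 higher by 8-fold or more held these letters. The share was 10% of 989 such genes among 1542 lower by 8-fold or more, 8.41% of 12531 genes tested and 12.7% of all 27025 genes of the table. A short SOX site, ATTGTT, was searched in the same way. It was held by 8.93% of the higher set, 8.9% of the lower set, 7.43% of genes tested and 12.2% of all genes. A match describes the letters in the window and is not a test of binding. Slc4a1, the anion exchanger of the red cell membrane, stood at 608, 591, 499 and 1364 CPM in yolk sacs, against 83.7, 121, 94.9 and 51.7 CPM in embryos (log2 fold change 3.11, SE 0.32, 2.66 without that library). Yolk sac CD WT replicate 2 was the highest library for Alas2 and Slc4a1, and no yolk sac overlapped an embryo. Tfrc, the transferrin receptor, is used by all dividing cells and stood at 559, 668, 312 and 879 CPM in yolk sacs, against 318, 367, 286 and 263 CPM in embryos (log2 fold change 0.98, SE 0.25), where yolk sac CD WT replicate 1 fell within the embryos and the CD line alone did not pass. Of 20 regulators, 16 were higher and 1 lower (median log2 fold change 2.49). Gata1, the main erythroid GATA factor, stood at 32.3, 32.9, 32.7 and 75.2 CPM in yolk sacs, against 4.09, 6.45, 6.23 and 4.93 CPM in embryos (log2 fold change 2.95, SE 0.26, 2.59 without that library). Klf1, an erythroid factor that acts on globin genes, stood at 28.3, 23.4, 27.5 and 68.7 CPM in yolk sacs, against 4.30, 6.07, 5.33 and 5.08 CPM in embryos (log2 fold change 2.76, SE 0.27, 2.36 without that library). Runx1, which is needed for definitive blood, stood at 16.8, 16.3, 18.5 and 19.2 CPM in yolk sacs, against 2.36, 2.29, 2.198 and 2.13 CPM in embryos (log2 fold change 2.97, SE 0.11), with the 4 yolk sacs close together. Kit, a receptor of progenitors that many embryonic cells express, was lower, at 18.6 and 58.5 CPM on average in yolk sacs and embryos (log2 fold change -1.64, SE 0.10).

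Leukocyte transcripts were low but higher in yolk sac. All 16 tested members of 24 listed were higher (median log2 fold change 3.57). Of the 16, 10 averaged 1 CPM or less in embryos. The filter on low counts thus favoured members that are high in yolk sac, and their shared direction is partly set by it. In the CD line alone 10 were higher and 0 lower, where 29.9% of all genes were higher and 30.7% lower. Ptprc, the pan-leukocyte surface protein CD45, stood at 4.15, 9.58, 1.71 and 3.04 CPM in yolk sacs, against 0.139, 0.239, 0.108 and 0 CPM in embryos (log2 fold change 5.22, SE 0.52, 6.95 without embryo CD WT replicate 1). Csf1r, the receptor that macrophages depend on, stood at 12.8, 13.3, 9.42 and 8.66 CPM in yolk sacs, against 0.971, 1.33, 0.793 and 1.98 CPM in embryos (log2 fold change 3.10, SE 0.24). Mrc1, the mannose receptor, stood at 111, 159, 106 and 82.5 CPM in yolk sacs, against 1.49, 1.16, 1.15 and 3.29 CPM in embryos (log2 fold change 6.04, SE 0.25). Lyve1, a hyaluronan receptor of macrophages and some endothelium, averaged 211 ± 42.01 CPM in yolk sacs and 1.49 ± 0.664 CPM in embryos (SD, n = 4 each; log2 fold change 7.19, SE 0.22). No yolk sac overlapped an embryo for any of the 4. The summed level of the tested members was 418, 515, 401 and 314 CPM in yolk sacs, against 13.6, 14.9, 13.4 and 14.9 CPM in embryos. Most of the yolk sac sum came from Mrc1 and from Lyve1, at 213, 247, 234 and 152 CPM. Since Lyve1 is also a gene of some endothelium, the sum does not measure leukocytes alone. Markers of mature tissue macrophages were at or near 0: Adgre1 had 0 counts over the yolk sacs and 2 over the embryos, Timd4 0 and 0, and C1qa 3 and 2. Ighm, the constant region of immunoglobulin M, stood at 27.4, 38.7, 2.86 and 1.99 CPM in yolk sacs, against 0, 0.0341, 0 and 0 CPM in embryos, with 1 count over the embryos and a ratio of 1956-fold (95% counting interval 351 to 77246). Both null yolk sacs were high and both CD yolk sacs low, so the ratio rests on the null pair. The HE yolk sacs held 2.64, 5.48, 0.200 and 0.0563 CPM in the same order. The source of the transcript, in cells of the yolk sac or in other blood or tissue collected with it, was not tested.

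Endothelial genes differed little as a group. Of 45, 27 were higher and 10 lower, against 35.9% and 38.8% of all genes. The median log2 fold change was 0.58, or 0.26 with library totals alone. General endothelial genes were modestly higher. Cdh5, the cadherin of endothelial junctions, stood at 148, 169.7, 150.1 and 114 CPM in yolk sacs, against 85.5, 77.1, 91.1 and 78.1 CPM in embryos (log2 fold change 0.80, SE 0.10), and Kdr, the main receptor for VEGF, at 187, 243, 209 and 172 CPM in yolk sacs, against 115, 101, 119 and 143 CPM in embryos (log2 fold change 0.77, SE 0.10). Pecam1, a junction protein, stood at 53.2, 78.6, 54.9 and 45.8 CPM in yolk sacs, against 34.4, 33.4, 35.1 and 22.01 CPM in embryos (log2 fold change 0.89, SE 0.16). The 4 yolk sacs lay above the 4 embryos for each, by a small margin for Kdr. The scavenger receptor Stab2 was far higher, at 206, 311, 219.8 and 189.9 CPM in yolk sacs, against 0.936, 1.16, 1.30 and 1.35 CPM in embryos (log2 fold change 7.60, SE 0.18). Genes of arterial identity did not move together. Gja5, an arterial connexin also found in heart, stood at 47.6, 57.8, 32.6 and 36.6 CPM in yolk sacs, against 15.1, 14.3, 15.3 and 7.62 CPM in embryos (log2 fold change 1.72, SE 0.18), while the Notch target genes Hey1 and Hey2, which are also expressed in heart and somites, had log2 fold changes of -3.13 (SE 0.15) and -3.17 (SE 0.16). The venous factor Nr2f2, also found widely in mesenchyme, had one of -1.91 (SE 0.08). Etv2, which starts the endothelial programme earlier, was lower, at 0.341, 0.113, 0.496 and 0.105 CPM in yolk sacs, against 2.32, 1.81, 3.35 and 8.03 CPM in embryos (log2 fold change -3.70, SE 0.49, -4.43 without yolk sac CD WT replicate 1).

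**Figure D4:**
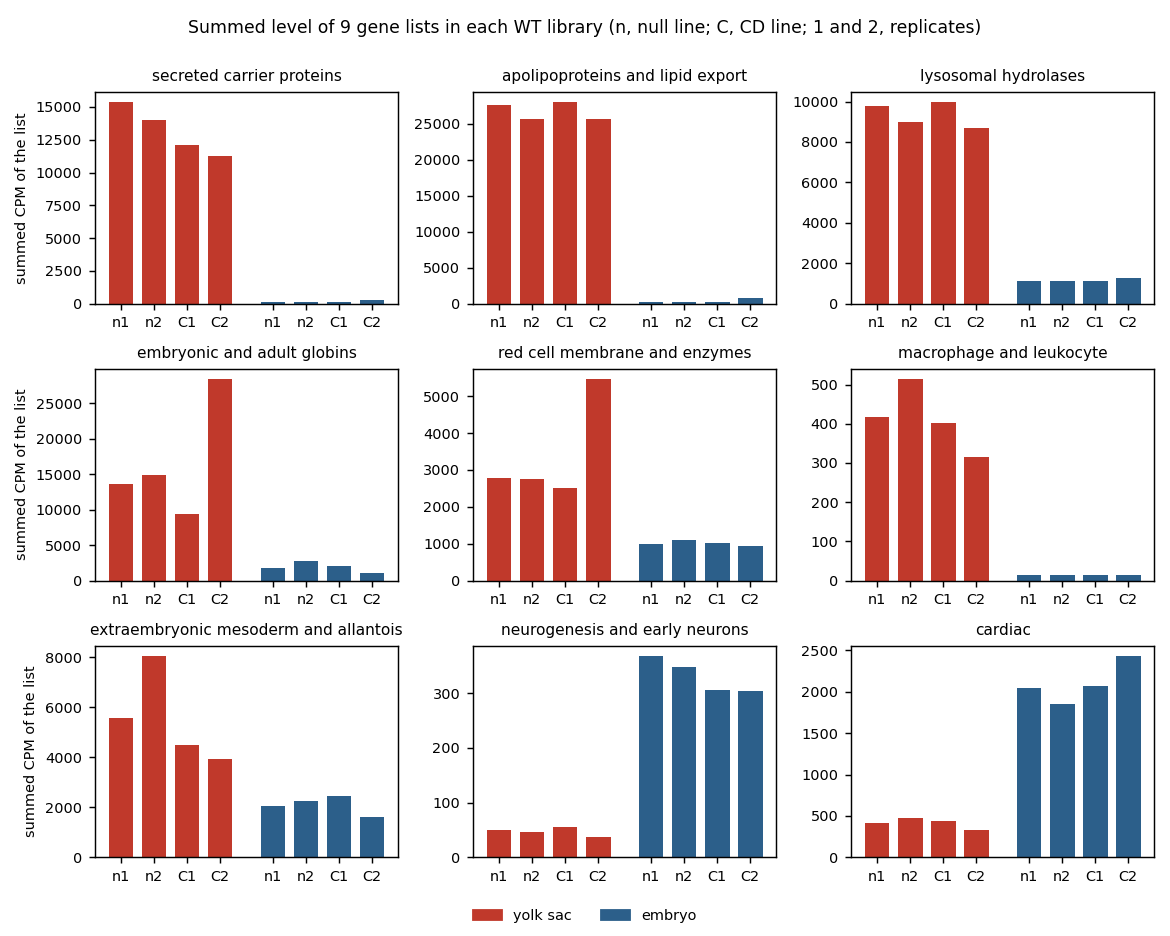
Summed CPM of 9 gene lists in each WT library as bars from 0, with the 4 yolk sac libraries in red left of the 4 embryo libraries in blue (n, null line; C, CD line). Carrier, apolipoprotein, lysosomal, globin, red cell and leukocyte sums are higher in every yolk sac, neuronal and cardiac sums in every embryo, and the globin sum of 28447 CPM in yolk sac CD WT replicate 2 is the highest of the 8, against 9317 to 14949 CPM in the other yolk sacs. In yolk sacs most of the leukocyte sum came from Mrc1 and Lyve1, most of the carrier sum from Afp and most of the apolipoprotein sum from Apob.

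Mesoderm genes were mixed in direction. Of 26 members of the extraembryonic mesoderm and allantois list, 13 were higher and 7 lower, against 35.9% and 38.8% of all genes. The median log2 fold change of 0.31 became -0.01 with library totals alone. In the CD line alone (29.9% of all genes higher, 30.7% lower) 6 were higher and 7 lower, and in the null line alone (35.7% higher, 36.7% lower) 14 were higher and 7 lower. Col1a1, a chain of type I collagen, stood at 1659.6, 2426, 1167 and 1184 CPM in yolk sacs, against 216, 303, 365 and 132 CPM in embryos (log2 fold change 2.61, SE 0.29). Lum, a collagen-binding proteoglycan, stood at 275, 414, 258 and 196 CPM in yolk sacs, against 31.3, 41.6, 42.7 and 15.4 CPM in embryos (log2 fold change 3.10, SE 0.29). Col3a1, of type III collagen, had a log2 fold change of 1.87 (SE 0.28). The matrix genes were highest in yolk sac null WT replicate 2, and the tissues did not overlap. Hand1, a factor of yolk sac mesoderm and heart, stood at 82.6, 113, 93.2 and 59.2 CPM in yolk sacs, against 31.6, 38.5, 56.5 and 65.0 CPM in embryos (log2 fold change 0.90, SE 0.15). Foxf1, a factor of splanchnic mesoderm, had a log2 fold change of 0.91 (SE 0.15). Both passed although libraries of the tissues overlapped, and neither passed in the CD line alone (0.33 and 0.27). Bmp4, a signal of mesoderm, at 25.4 and 26.5 CPM on average in yolk sacs and embryos, did not pass (log2 fold change -0.06, SE 0.16). The mesenchymal factors Twist1 and Msx2 were lower, with log2 fold changes of -2.87 (SE 0.12) and -2.17 (SE 0.14), as was the limb and allantois factor Tbx4 (log2 fold change -4.64, SE 0.64), which stood at 3.98, 0.282, 0.0551 and 0.105 CPM in yolk sacs, against 9.88, 6.72, 15.5 and 11.8 CPM in embryos. Yolk sac null WT replicate 1 alone was high, the log2 fold change was -6.08 without it, and all HE yolk sacs were at 0.

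Markers of other extraembryonic tissues were checked, since a dissected yolk sac could carry them. Of the parietal endoderm list 11 of 14 were higher and 3 lower (median log2 fold change 1.41), among them the basement membrane genes Col4a1 (log2 fold change 2.04, SE 0.09) and Sparc (log2 fold change 2.16, SE 0.11), which many tissues make. Thbd, which parietal endoderm expresses strongly, stood at 17.1, 20.4, 13.9 and 12.8 CPM in yolk sacs, against 6.62, 5.05, 4.90 and 2.80 CPM in embryos (log2 fold change 1.74, SE 0.18). Only 10 of 20 trophoblast and decidua genes were tested, with 5 higher and 4 lower, against 35.9% and 38.8% of all genes. Prl3d1, a hormone of trophoblast giant cells, stood at 12.5, 0.0564, 2.70 and 1.42 CPM in yolk sacs, against 0, 0.0682, 0.540 and 0.262 CPM in embryos, with yolk sac null WT replicate 1 alone above the rest and the tissues overlapping. Its log2 fold change was 4.82 (SE 1.23), it was 6.24 without embryo null WT replicate 2, and it was 1.49 and did not pass without the high library, when 3 of the tested members were higher. Tpbpa, of the spongiotrophoblast, had 7 counts over the yolk sacs and 0 over the embryos. All 7 were in yolk sac null WT replicate 1, the library that was high for Prl3d1. Prl3b1 had 2 counts over the yolk sacs and 27 over the embryos, and Synb, Psg21 and Prl8a9 had 0 in either tissue. The summed level of the tested trophoblast and decidua members was 133, 145, 127 and 81.2 CPM in yolk sacs, against 100, 104, 130.5 and 123 CPM in embryos. Their part in the other differences was not tested.

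On the embryo side, transcription factors that pattern the neural tube were at or near 0 in most cases in yolk sacs. Of 29 tested members, 28 were lower and 1 higher, 24 averaged 1 CPM or less in yolk sacs, and the median log2 fold change was -8.19, or -6.77 with genes at 0 set to the limit that 3 counts over the yolk sacs allow. Zic1, a factor of the dorsal neural tube and somites, had no count in any yolk sac library and 55.0, 51.3, 38.8 and 14.8 CPM in embryos, at least 979-fold lower in yolk sac. Pou3f2, a neural progenitor factor, likewise had none in yolk sacs, against 41.3, 38.1, 30.9 and 21.8 CPM in embryos, at least 805-fold lower. Sox2, a factor of neural stem cells, stood at 0.398, 0.395, 0 and 0.105 CPM in yolk sacs, against 63.5, 56.7, 63.1 and 67.2 CPM in embryos (log2 fold change -8.67, SE 0.18, -10.41 without yolk sac CD WT replicate 2). Pax3, of the dorsal neural tube and crest, stood at 0.227, 0.0564, 0.496 and 0.682 CPM in yolk sacs, against 35.2, 34.5, 30.6 and 29.4 CPM in embryos (log2 fold change -6.77, SE 0.18, -7.40 without yolk sac null WT replicate 1). Nes, the progenitor filament nestin, which vessels also express, was lower by a smaller amount, at 44.3, 38.1, 37.6 and 31.7 CPM in yolk sacs, against 204, 176, 161 and 118 CPM in embryos (log2 fold change -2.11, SE 0.11). Lmx1a, of the roof plate, alone passed as higher (log2 fold change 0.70, SE 0.24), at 11.5, 10.8, 9.48 and 22.8 CPM in yolk sacs, against 8.15, 8.29, 9.26 and 7.36 CPM in embryos. Yolk sac CD WT replicate 2 was the high library. The call was lost without it (0.31), and also when any of the other libraries but the replicates numbered 1 of the CD line was left out (0.63 to 0.72).

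Brain region and neuron genes had the same direction. Of the forebrain, midbrain and eye list 26 of 27 were lower and none higher, with 1 higher without embryo CD WT replicate 2 or yolk sac CD WT replicate 1. Of the neurogenesis list 36 of 37 were lower. In yolk sacs 24 of the 27 averaged 1 CPM or less, with 11 at 0, as did 28 of the 37, with 10 at 0. Such members pass the filter on low counts mainly through the embryos, so these counts are no separate support. Otx2, which specifies forebrain and midbrain, had no count in yolk sacs, against 37.0, 32.9, 34.6 and 37.1 CPM in embryos, at least 855-fold lower. Six3, of the anterior forebrain and eye, stood at 0, 0, 0.165 and 0.0525 CPM in yolk sacs, against 5.51, 5.08, 5.26 and 11.3 CPM in embryos, 122-fold lower in yolk sac (95% counting interval 47.6 to 447). Neurog2, which commits progenitors to neurons, had none in yolk sacs, against 8.84, 8.56, 6.92 and 2.54 CPM in embryos, at least 164-fold lower. Dcx, of migrating neurons, had none either, against 7.59, 6.99, 3.21 and 0.934 CPM in embryos, at least 115-fold lower. Embryo CD WT replicate 2 was the lowest embryo for both. Crmp1, a neuronal growth cone protein, stood at 4.78, 3.95, 6.50 and 3.52 CPM in yolk sacs, against 46.0, 40.6, 46.1 and 66.8 CPM in embryos (log2 fold change -3.40, SE 0.19). Prph, a filament of peripheral neurons, was the exception, at 3.92, 5.19, 4.57 and 4.46 CPM in yolk sacs, against 0.763, 0.512, 0.288 and 0.598 CPM in embryos (log2 fold change 3.08, SE 0.26). The summed level of the neuron list was 49.2, 46.3, 54.9 and 37.6 CPM in yolk sacs, against 369, 347, 307 and 304 CPM in embryos.

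Neural crest genes were lower in 19 of 23 cases and higher in none (median log2 fold change -4.66). Tfap2b, a factor of crest and its derivatives, had no count in yolk sacs, against 34.4, 33.4, 32.2 and 22.4 CPM in embryos, at least 744-fold lower. Sox10, the factor that maintains crest and glia, stood at 0.0569, 0, 0 and 0 CPM in yolk sacs, against 19.97, 18.5, 22.2 and 25.4 CPM in embryos, with 1 yolk sac count and 1554-fold lower in yolk sac (95% counting interval 279 to 61381). Prrx1, of crest and limb mesenchyme, stood at 0.739, 0.789, 0.551 and 0.472 CPM in yolk sacs, against 93.0, 87.9, 71.2 and 47.8 CPM in embryos (log2 fold change -6.86, SE 0.19). Ets1 and Snai2, which endothelium and mesoderm also use, did not pass, with overlapping libraries and log2 fold changes of -0.06 (SE 0.10) and -0.26 (SE 0.13). Without yolk sac null WT replicate 2, Snai2 passed as lower (-0.41), and without embryo CD WT replicate 1 or yolk sac CD WT replicate 2 a single crest gene passed as higher.

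Axis elongation and segmentation were likewise embryo genes. 26 of 27 tail bud and clock genes were lower (median log2 fold change -7.60, -7.25 with genes at 0 at their limit). Cdx4, a posterior homeobox factor, had no count in yolk sacs, against 25.5, 28.6, 45.4 and 90.0 CPM in embryos, at least 1125-fold lower and the largest of the bounds printed here. That bound holds for the WT libraries alone. The HE yolk sacs held 0, 0.406, 0 and 0 CPM of Cdx4, against 30.9, 29.4, 29.5 and 27.9 CPM in HE embryos (log2 fold change -9.77). T, the mesoderm factor brachyury, stood at 0.227, 0, 0.0551 and 0.105 CPM in yolk sacs, against 23.1, 28.4, 33.04 and 55.1 CPM in embryos (log2 fold change -8.38, SE 0.37, -10.64 without yolk sac null WT replicate 1). Lef1, a mediator of Wnt signals, stood at 0.341, 0.282, 0.0551 and 0.105 CPM in yolk sacs, against 50.3, 44.4, 55.4 and 73.8 CPM in embryos (log2 fold change -8.39, SE 0.20). Embryo CD WT replicate 2 was the highest embryo for Cdx4 and T. Ripply1, a repressor at somite borders, was higher in yolk sac, at 3.30, 3.04, 2.26 and 2.26 CPM in yolk sacs, against 0.728, 0.785, 0.721 and 0.598 CPM in embryos (log2 fold change 1.91, SE 0.21). Somite genes were lower in 25 of 26 cases. Meox1, a factor of somite patterning, stood at 0, 0.0564, 0.275 and 0.0525 CPM in yolk sacs, against 79.4, 79.9, 74.2 and 53.3 CPM in embryos (log2 fold change -9.89, SE 0.27, -11.24 without yolk sac null WT replicate 2 and -10.66 without yolk sac CD WT replicate 1). Foxc1, of somites and vessels, stood at 0.171, 0.507, 0.551 and 0.420 CPM in yolk sacs, against 52.6, 45.2, 45.8 and 41.2 CPM in embryos (log2 fold change -6.81, SE 0.18). Pax1, of the sclerotome, had none in yolk sacs, against 14.9, 11.9, 11.5 and 4.26 CPM in embryos, at least 259.9-fold lower.

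The Hox genes, which give position along the axis, were lower in yolk sac in 34 of 35 tested cases and higher in none. Hoxb1, the most anterior gene of its cluster, stood at 0, 0, 0.0551 and 0.0525 CPM in yolk sacs, against 20.8, 21.2, 23.8 and 33.4 CPM in embryos, with 2 counts over the yolk sacs and 894-fold lower in yolk sac (95% counting interval 247 to 7378). That ratio and its interval hold for the WT libraries alone. The HE yolk sacs held 0, 0.355, 0.3504 and 0.675 CPM of Hoxb1. The HE embryos held 20.3, 21.5, 21.99 and 18.9 CPM, and the HE log2 fold change was -6.05. Hoxa9 stood at 0.739, 0.733, 0.110 and 0.105 CPM in yolk sacs, against 38.8, 44.04, 51.3 and 51.9 CPM in embryos (log2 fold change -7.32, SE 0.13) and Hoxb9 at 0.967, 1.58, 0.551 and 0.367 CPM in yolk sacs, against 79.9, 78.8, 83.9 and 118 CPM in embryos (log2 fold change -6.86, SE 0.18). All 3 lay lower in every yolk sac, below 2 CPM. Hoxb4 stood at 6.31, 5.13, 4.19 and 4.04 CPM in yolk sacs, against 26.3, 24.4, 26.1 and 24.6 CPM in embryos (log2 fold change -2.38, SE 0.10) and Hoxb6 at 3.92, 3.55, 4.08 and 2.52 CPM in yolk sacs, against 17.4, 16.5, 16.8 and 20.4 CPM in embryos (log2 fold change -2.34, SE 0.16). Hoxc6 stood at 6.54, 12.5, 5.84 and 4.09 CPM in yolk sacs, against 29.4, 33.7, 33.7 and 31.8 CPM in embryos (log2 fold change -2.23, SE 0.19). Hoxc8 was the 1 tested Hox gene that did not pass (log2 fold change 0.15, SE 0.18), at 32.6, 48.4, 29.7 and 26.02 CPM in yolk sacs, against 22.2, 23.5, 28.7 and 51.1 CPM in embryos, where the libraries of the tissues overlapped and embryo CD WT replicate 2 was the highest. Its log2 fold change was 0.83 in the null line and -0.52 in the CD line, and it passed as higher without embryo CD WT replicate 2 (0.40). Counts of genes that overlap within a cluster may be shared between neighbours.

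**Figure D5:**
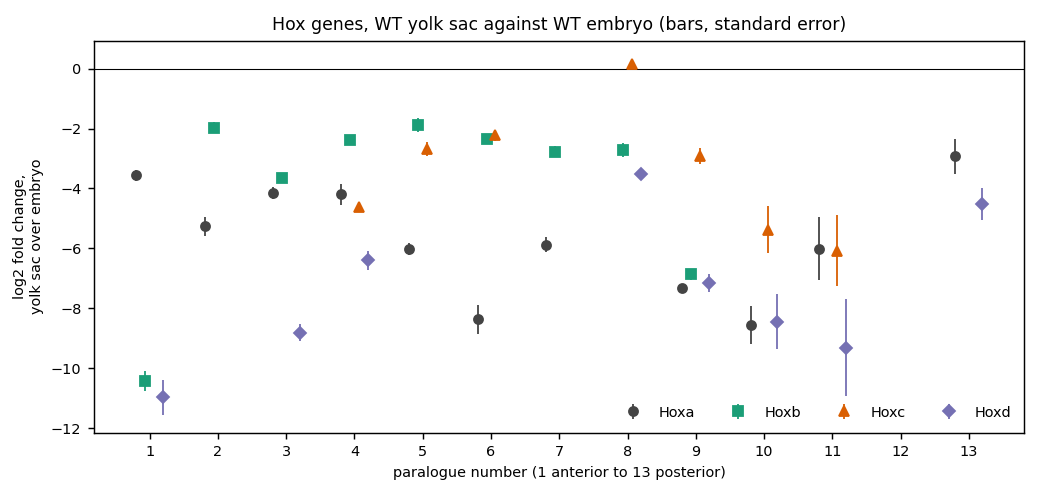
Log2 fold change of yolk sac over embryo with its standard error for the 35 tested Hox genes, by paralogue number on the horizontal axis, with a colour and shape for each cluster. Of the B cluster, Hoxb4 and Hoxb6 lie at -2.38 and -2.34 while Hoxb9 lies at -6.86, Hoxc8 at 0.15 is the 1 point above 0, and the lowest points, with few or no yolk sac counts, depend on the fit.

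The heart is part of the embryo samples, and 29 of 35 cardiac genes were lower in yolk sac with 4 higher (median log2 fold change -5.37). Myh6, the atrial myosin heavy chain, stood at 0.0569, 0, 0.165 and 0.157 CPM in yolk sacs, against 330, 295, 333 and 395 CPM in embryos (log2 fold change -12.13, SE 0.17, -13.48 without yolk sac null WT replicate 1). Myh7, the ventricular chain, stood at 0, 0, 0.2204 and 0 CPM in yolk sacs, against 142, 121, 123 and 137 CPM in embryos, 2369-fold lower in yolk sac (95% counting interval 925 to 8694). Myl2, the ventricular light chain, had no count in yolk sacs, against 39.5, 39.6, 37.6 and 24.96 CPM in embryos, at least 861-fold lower. Ttn, the giant spring protein titin, stood at 3.41, 3.44, 3.196 and 3.201 CPM in yolk sacs, against 343, 258, 277 and 433 CPM in embryos (log2 fold change -6.62, SE 0.19). Tnnt2, troponin T, stood at 0.682, 1.30, 2.98 and 1.15 CPM in yolk sacs, against 89.0, 85.1, 98.7 and 128 CPM in embryos (log2 fold change -6.12, SE 0.22). Actc1, cardiac actin, stood at 7.33, 5.86, 1.21 and 2.41 CPM in yolk sacs, against 375, 366, 414 and 433 CPM in embryos (log2 fold change -6.83, SE 0.13), and its difference was larger in the CD line. No yolk sac overlapped an embryo for these 6 contractile genes. Tbx20, a factor of heart and yolk sac mesoderm, at 76.6 and 63.4 CPM on average in yolk sacs and embryos, did not pass (log2 fold change 0.27, SE 0.12), but passed as higher without embryo CD WT replicate 2 (0.34) or yolk sac null WT replicate 1 (0.40). Gata4 and Hand1 were higher as given above, and in the CD line alone a single cardiac gene was higher. Nkx2-5, a factor of early heart muscle, stood at 0.114, 0.395, 0.110 and 0.105 CPM in yolk sacs, against 6.14, 5.83, 6.74 and 10.1 CPM in embryos (log2 fold change -5.37, SE 0.32).

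Limb, kidney, gut and placode genes were lower in 26 of 29 cases. Sox9, of cartilage precursors and several organ buds, stood at 0.682, 1.41, 1.49 and 0.997 CPM in yolk sacs, against 46.9, 38.5, 43.7 and 46.0 CPM in embryos (log2 fold change -5.26, SE 0.18). The higher members included Pdx1 and Nkx2-3. Pdx1, a factor of the pancreas and duodenum, stood at 3.24, 2.54, 4.08 and 2.204 CPM in yolk sacs, against 0.243, 0.307, 0.432 and 0.187 CPM in embryos (log2 fold change 3.34, SE 0.34). Nkx2-3, a factor of gut and spleen mesoderm, had a log2 fold change of 1.55 (SE 0.16). None of these 3 genes overlapped between the tissues.

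Signalling genes differed by ligand. Wnt ligands were lower in 18 of 19 cases, and the feedback gene Axin2, which Wnt signals induce, stood at 3.18, 3.16, 3.47 and 4.83 CPM in yolk sacs, against 67.2, 57.9, 68.5 and 89.6 CPM in embryos (log2 fold change -4.27, SE 0.14). Wnt3a, a ligand of the tail bud and dorsal neural tube, stood at 0, 0, 0.0551 and 0 CPM in yolk sacs, against 9.05, 9.52, 9.04 and 11.99 CPM in embryos, with 1 yolk sac count and 716-fold lower in yolk sac (95% counting interval 128 to 28275). Wnt2b was the 1 higher ligand (log2 fold change 0.52, SE 0.16), but its libraries overlapped. The call was lost without embryo null WT replicate 2 (0.45) or yolk sac null WT replicate 2 (0.39). Fibroblast growth factors were lower in 12 and higher in 1 of 16 cases. Fgf8, of the tail bud, limb and midbrain border, had no count in yolk sacs, against 9.33, 8.70, 10.5 and 15.9 CPM in embryos, at least 266-fold lower. Fgf15, of the brain and tail bud, had none either, against 13.9, 14.1, 21.98 and 26.1 CPM in embryos, at least 455-fold lower. That bound holds for the WT libraries alone. The HE yolk sacs held 0, 0.0507, 0.0501 and 0.450 CPM of Fgf15, against 14.4, 15.3, 16.3 and 16.3 CPM in HE embryos (log2 fold change -7.47). Fgf1 was higher, at 32.9, 35.4, 31.3 and 32.4 CPM in yolk sacs, against 0.728, 0.887, 0.793 and 1.31 CPM in embryos (log2 fold change 5.16, SE 0.15). Bmp6, a bone morphogenetic protein that signals body iron in the adult liver, was higher in yolk sac, at 43.1, 33.2, 48.8 and 35.7 CPM in yolk sacs, against 2.46, 2.25, 2.67 and 3.18 CPM in embryos (log2 fold change 3.93, SE 0.15). Bmp2 averaged 6.67 and 15.8 CPM in yolk sacs and embryos (log2 fold change -1.19, SE 0.17). The libraries did not overlap for Fgf1, Bmp6 or Bmp2.

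Ihh and Shh, both hedgehog ligands, differed in opposite directions. Ihh, the ligand of visceral endoderm and gut, stood at 51.1, 44.3, 52.7 and 40.03 CPM in yolk sacs, against 0.728, 1.09, 1.62 and 3.77 CPM in embryos (log2 fold change 4.90, SE 0.24). Shh, the ligand of notochord, floor plate and limb, stood at 0.0569, 0, 0 and 0 CPM in yolk sacs, against 14.3, 15.5, 15.6 and 19.9 CPM in embryos, with 1 yolk sac count and 1178-fold lower in yolk sac (95% counting interval 211 to 46532). That ratio and its interval hold for the WT libraries alone. The HE yolk sacs held 0, 0.0507, 0.2503 and 0.4502 CPM of Shh. The HE embryos held 15.453, 15.005, 16.19 and 16.573 CPM, and the HE log2 fold change was -7.23. The receptor Ptch1, which hedgehog signals induce, was present in both tissues at 176, 206, 203 and 145 CPM in yolk sacs, against 208, 195, 237 and 366 CPM in embryos (log2 fold change -0.44, SE 0.14), with overlapping libraries. Its call was lost without embryo null WT replicate 1 (-0.41), embryo CD WT replicate 2 (-0.25), yolk sac null WT replicate 1 (-0.38) or yolk sac CD WT replicate 2 (-0.32). Gli1, another induced gene, was lower, at 13.2, 18.9, 14.5 and 9.34 CPM in yolk sacs, against 41.8, 43.2, 46.5 and 49.95 CPM in embryos (log2 fold change -1.71, SE 0.15), as was Gli3, the main repressor of the pathway (log2 fold change -3.93, SE 0.11). Hhip, an induced inhibitor that binds the ligands, was higher, at 32.2, 49.4, 39.4 and 28.1 CPM in yolk sacs, against 13.2, 14.02, 13.9 and 11.9 CPM in embryos (log2 fold change 1.49, SE 0.16). In the list as a whole 4 of 15 were higher and 10 lower, against 35.9% and 38.8% of all genes.

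Of 22 retinoid genes tested, 7 were higher in yolk sac and 14 lower, against 35.9% and 38.8% of all genes. Bco1, which cleaves beta-carotene, stood at 76.0, 74.2, 69.4 and 76.2 CPM in yolk sacs, against 0.312, 0.409, 0.684 and 1.49 CPM in embryos (log2 fold change 6.87, SE 0.17). Dhrs3, which returns retinal to retinol, stood at 42.9, 32.1, 30.5 and 31.95 CPM in yolk sacs, against 4.75, 5.46, 5.73 and 7.21 CPM in embryos (log2 fold change 2.57, SE 0.13). Aldh1a2, the main enzyme that makes retinoic acid in the embryo, stood at 0, 0.113, 0.110 and 0.0525 CPM in yolk sacs, against 53.7, 51.2, 55.4 and 82.9 CPM in embryos (log2 fold change -9.69, SE 0.29, -11.47 without yolk sac null WT replicate 2). Stra6, the cell receptor for RBP4, stood at 0.796, 0.338, 0.0551 and 0.630 CPM in yolk sacs, against 30.9, 26.2, 29.6 and 30.003 CPM in embryos (log2 fold change -6.02, SE 0.29, -7.30 without yolk sac CD WT replicate 2). Crabp1, which binds retinoic acid in the cytoplasm, stood at 0.512, 0.338, 0.826 and 0.105 CPM in yolk sacs, against 261, 270.2, 253 and 197 CPM in embryos (log2 fold change -9.10, SE 0.22, -10.14 without yolk sac CD WT replicate 1). No library of one tissue reached the range of the other for these 5 genes.

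Imprinted genes are expressed from 1 parental copy and often act in growth and placenta. They were divided, with 21 of 40 higher and 16 lower (median log2 fold change 0.64), against 35.9% and 38.8% of all genes. Sfmbt2, a Polycomb gene imprinted in extraembryonic tissue, stood at 202, 166, 206 and 169 CPM in yolk sacs, against 6.93, 6.21, 8.47 and 9.19 CPM in embryos (log2 fold change 4.61, SE 0.10). Phlda2, a brake on placental growth, stood at 202, 156, 145 and 149.5 CPM in yolk sacs, against 8.67, 7.64, 15.4 and 28.4 CPM in embryos (log2 fold change 3.60, SE 0.18). The growth-restraining RNA H19 stood at 6378, 6931, 6016 and 6268 CPM in yolk sacs, against 1697, 1814, 1976 and 1966 CPM in embryos (log2 fold change 1.78, SE 0.05). Peg10, a retrotransposon-derived gene needed for the placenta, stood at 4715, 4084, 4309.8 and 3596 CPM in yolk sacs, against 982, 882, 1142 and 1138 CPM in embryos (log2 fold change 2.02, SE 0.08). Meg3, a maternally expressed long noncoding RNA, stood at 1326, 1181, 1218 and 1088 CPM in yolk sacs, against 357, 361, 381 and 398 CPM in embryos (log2 fold change 1.68, SE 0.06). Every yolk sac exceeded every embryo for these 5 genes. Grb10, an inhibitor of insulin signalling, was lower, at 403, 407, 364 and 550.2 CPM in yolk sacs, against 1861, 1874, 1799 and 1765 CPM in embryos (log2 fold change -2.08, SE 0.11), as were Ndn (log2 fold change -1.72, SE 0.13) and Magel2 (log2 fold change -2.84, SE 0.21), neighbours in the Prader-Willi region. Igf2, the growth factor next to H19, had a log2 fold change of 0.53 (SE 0.10) with overlapping libraries and no call in the CD line alone (0.10), and 64.5% of its exon bases are shared with another gene.

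Genes of the cell cycle differed little. Of 30, 7 were higher and 18 lower, against 35.9% and 38.8% of all genes. In either direction 0 reached 2-fold, and the log2 fold changes ranged from -0.88 to 0.71. The replication genes Rrm2 (log2 fold change -0.88, SE 0.05) and Mcm3 (log2 fold change -0.79, SE 0.05) were lower, while Mki67, a protein of dividing nuclei, was higher (log2 fold change 0.54, SE 0.09). Of 19 tested genes of the DNA and H3K36 methylation list, 5 were higher and 10 lower. Their median log2 fold change was -0.31, with a range of -1.20 to 1.36. In the CD line alone 5 were higher and 6 lower, near the 29.9% and 30.7% of all genes there. Maintenance methylation of DNA depends on Uhrf1, which stood at 251, 249, 274 and 269 CPM in yolk sacs, against 479.6, 465, 476 and 506 CPM in embryos (log2 fold change -0.88, SE 0.05). Among H3K36 methyltransferases Nsd2 was lower (log2 fold change -1.14, SE 0.05). Zinc finger genes named Zfp were lower in 222 and higher in 55 of 344 cases, with a median log2 fold change of -0.56. Ribosomal protein genes were lower in 28 and higher in 14 of 78, where 38.8% and 35.9% of all genes were. Without embryo null WT replicate 2 they were lower in 18 and higher in 15, against 33.8% and 32.8% of all genes. With library totals alone, where 50.8% of all genes were lower and 27.1% higher, they were lower in 63 and higher in 5. Mitochondrially encoded transcripts were higher in 13 of 15 cases (median log2 fold change 1.35). mt-Co1, a subunit of cytochrome oxidase, stood at 12968, 12980, 13198 and 13353 CPM in yolk sacs, against 5280.1, 5276, 5202 and 4847 CPM in embryos (log2 fold change 1.35, SE 0.05). Immediate early genes, which can rise during dissection, were higher in 11 and lower in 5 of 20 cases, against 35.9% and 38.8% of all genes. Fos stood at 4.26, 4.23, 4.74 and 3.52 CPM in yolk sacs, against 0.832, 0.819, 0.468 and 0.598 CPM in embryos (log2 fold change 2.65, SE 0.21). Jun stood at 13.6, 13.3, 10.3 and 9.34 CPM in yolk sacs, against 32.004, 25.5, 30.3 and 24.9 CPM in embryos (log2 fold change -1.29, SE 0.11). Their part in the other differences was not tested.

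The 15 genes with the largest positive log2 fold changes at 10 CPM or more in the higher tissue included Apoa4, Fga, Slc2a2 and Cubn, given above, and several genes of gut and kidney epithelia. Eps8l3, a relative of an actin-capping protein of microvilli, had 15.8, 17.98, 15.5 and 10.9 CPM in yolk sacs and no count in embryos, at least 563-fold higher. Its exons share 42.4% of their bases with another gene. Slc6a18, an amino acid transporter of kidney and gut, stood at 20.5, 17.9, 12.1 and 17.2 CPM in yolk sacs, against 0, 0, 0 and 0.0747 CPM in embryos, a ratio of 951-fold (95% counting interval 263 to 7856). S100g, the intestinal calcium-binding protein calbindin D9k, stood at 451, 398, 335 and 302 CPM in yolk sacs, against 0, 0.239, 0.612 and 4.37 CPM in embryos (log2 fold change 9.37, SE 0.42), with embryo CD WT replicate 2 the highest embryo. The value was 10.38 without that library and 11.61 without embryo null WT replicate 2. Cidec, a protein of lipid droplets, stood at 24.1, 19.3, 25.2 and 17.6 CPM in yolk sacs, against 0, 0, 0 and 0.112 CPM in embryos, a ratio of 807-fold (95% counting interval 276 to 3912). The 15 largest negative log2 fold changes included, beside genes already given, Mir124-2hg, the host transcript of a neuronal microRNA, with no count in yolk sacs and 24.1, 24.97, 19.6 and 14.7 CPM in embryos, at least 508-fold lower. Grem1, an inhibitor of bone morphogenetic proteins, had none in yolk sacs and 12.9, 11.7, 11.6 and 13.8 CPM in embryos, at least 302-fold lower. Miat, a neural long noncoding RNA, stood at 0, 0.0564, 0 and 0 CPM in yolk sacs, against 54.4, 54.2, 36.6 and 22.1 CPM in embryos, 3068-fold lower in yolk sac (95% counting interval 551 to 121160). Of genes at 10 CPM or more in all 4 libraries of 1 tissue, 5 were at 0.1 CPM or less in every embryo (Eps8l3, Kng1, Slc6a18, Erich4 and Clec2h) and 17 in every yolk sac. Of genes named here and not marked so already, Fgf15 (25.7%), Miat (30.4%) and Shh (28.3%) have over 20% of their exon bases shared with another annotated gene, and no label or file header states whether reads were counted by strand, which leaves their values uncertain to that extent.

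Ranked by level per length, mitochondrial transcripts and embryonic globins stood highest in yolk sacs after Gm23935, and Afp, a product of visceral endoderm, was at rank 13. mt-Co1 had 7616 ± 127 FPKM, Hbb-y 7239.7 ± 3628, mt-Nd1 7161 ± 426 and Afp 2107 ± 407 in yolk sacs (mean ± SD, n = 4), against 3714 ± 203, 934 ± 522, 3076 ± 197 and 8.22 ± 7.74 FPKM in embryos. Gm23935 had the highest mean FPKM in both tissues and is a feature of 57 bases annotated as a microRNA whose values are not interpreted here. Eef1a1, a translation factor of all cells, had 2561 ± 151 FPKM in yolk sacs and 3089.8 ± 141 in embryos, and the direction of its TMM-scaled difference of 0.04 turned with library totals alone (-0.27).

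Whether the tissue difference was the same in both lines was tested directly. It differed for 11 of 18755 genes (0.0587%), with a more positive log2 value in the CD line for 8 (0.0427%) and a more negative one for 3 (0.016%). The count depended on single libraries: it was 1 without yolk sac null WT replicate 1 or replicate 2, 6 without embryo null WT replicate 1, 31 without yolk sac CD WT replicate 2, 155 without embryo CD WT replicate 1 and 176 without yolk sac CD WT replicate 1. Xist, Eif2s3y, Kdm5d and Eif2s3x are sex-linked, and the CD embryos are the libraries with Y transcripts. Of the others, 5 are ribosomal pseudogenes or predicted genes. Pm20d1, a secreted enzyme of amino acid conjugates, stood at 2.05, 2.37, 15.4 and 12.3 CPM in yolk sacs, against 5.48, 5.36, 5.40 and 5.42 CPM in embryos, higher in the CD yolk sacs than in the null ones while the embryos did not separate by line (CD minus null difference 2.65, SE 0.28), and the Actc1 difference was -2.05 (SE 0.27). Fitted alone, the null line gave 12881 calls and the CD line 10669, and 98.07% of the null calls tested in the CD line had the same direction there. Calls of the same direction in both lines numbered 9827, which is 76.29% of those of the null line and 92.11% of those of the CD line, and 11 genes were called in opposite directions.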

How the data were processed

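RNA of E9.5 yolk sacs and embryos was sequenced with the KAPA mRNA HyperPrep kit on a NovaSeq6000, per the labels' protocols. The submitters' processing notes name fastp 0.22.0, HISAT2 2.2.1, featureCounts 2.0.1, DESeq2 1.32.0 and the mm10 build. The authors deposited, for each tissue, a table of raw counts and of FPKM for 55421 genes, with the same identifiers in both. The deposited FPKM equals count over length over library total within 0.001 in all 1330104 values. Identifiers were looked up in GENCODE M21 (55240 found), and 27 symbols turned into dates were restored by identifier.

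The 8 WT libraries were fitted with edgeR 4.0.16 (R 4.3.3, limma 3.58.1): TMM scaling, filterByExpr (minimum count 10, minimum total 15), a quasi-likelihood fit of 4 groups (line by tissue, 4 residual degrees of freedom) and a contrast of the mean of the yolk sac groups minus the mean of the embryo groups. Benjamini-Hochberg adjustment ran over all 18755 genes tested, and "called" or "passed" means an adjusted p under 0.05. The biological coefficient of variation was 0.116. SE is the log2 fold change over the square root of F. The 8 HE libraries were fitted alone in the same way. The line difference is the CD tissue difference minus the null one. Where a tissue has no count the fold is a bound against 3 counts over its 4 libraries, and where it has 10 or fewer the ratio of CPM has a 95% Poisson interval for counting error. The method was checked on simulated counts. Alternatives were other scalings, filters, DESeq2 1.42.0, glmTreat, each line alone, no line term, all 24 libraries, a replicate block and each library left out. Replicates differed by more than counting noise (chi-square per degree of freedom 3.87 to 32.3), so none was treated as a duplicate.

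Genes were named by rule: Setd2, the markers and sex-linked genes, the 15 largest changes each way at 10 CPM or more without overlap, the 10 highest FPKM per tissue (in part), members of the 37 lists and 27 families, up to 5 of smallest p each way or with a described role, and genes whose difference differed between lines. Some genes of the lists are not reported here. The members and lists were chosen with earlier results of these data known.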

Additional observations from a re-analysis of the deposited data

Results flagged for a closer look

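Each tissue has 4 libraries, so a library was checked against the other 3 by Dixon's test, which chance alone exceeds in about 1 of 20 groups. Of 398 groups of 4 (the named genes in each tissue, where a library reached 0.5 CPM), 48 held a library past the 95% limit, and 38 of these were embryo CD WT replicate 2. It was the high embryo for 33 genes and the low one for 5. Among genes of endoderm carriers and lipoproteins it was high for Apoa4 (0.822 CPM), Fgg (2.47 CPM), Spp2 (1.98 CPM), Plg (1.83 CPM), Mttp (28.02 CPM), Fga (4.26 CPM), Apoe (100.2 CPM), Soat2 (4.82 CPM), Afp (61.2 CPM), Ttr (28.7 CPM), Apoa1 (41.6 CPM) and Apob (311 CPM). Among genes of endoderm uptake, lysosomes and brush border it was high for Cdhr2 (3.77 CPM), Dab2 (165 CPM), Pdzk1 (2.65 CPM), Folr1 (5.31 CPM), S100g (4.37 CPM), Cldn2 (7.02 CPM), Amn (4.30 CPM), Ctsh (16.3 CPM) and Cubn (196 CPM). Among genes of endoderm transport, metabolism and regulation it was high for Creb3l3 (1.08 CPM), Slc39a5 (4.45 CPM), Slc16a1 (334 CPM) and Slc2a2 (10.2 CPM). The other genes for which it was the high embryo were Hoxb9 (118 CPM), Aldh1a2 (82.9 CPM), Mrc1 (3.29 CPM), Pkm (2815 CPM), Wnt3a (11.99 CPM), Magel2 (21.3 CPM), Six3 (11.3 CPM) and Cdx1 (18.2 CPM). It was the low embryo for Fcgrt (1.87 CPM), Myl2 (24.96 CPM), Gja5 (7.62 CPM), Pecam1 (22.01 CPM) and Ets1 (85.0 CPM). These genes span visceral endoderm, posterior axis and vessels, and the cause was not tested. Library embryo null WT replicate 2 was high for Ctsb (80.5 CPM). Library yolk sac CD WT replicate 1 was low for Slc38a1 (62.3 CPM). Library yolk sac null WT replicate 2 was high for Hey1 (3.89 CPM). Library yolk sac null WT replicate 1 was high for Dhrs3 (42.9 CPM) and Tbx4 (3.98 CPM). Library yolk sac CD WT replicate 2 was high for Gata1 (75.2 CPM), Klf1 (68.7 CPM), Slc4a1 (1364 CPM) and Lmx1a (22.8 CPM) and low for Krt8 (367 CPM).

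The tissue difference itself differed between the lines for 11 genes, by a test of the CD minus null difference in the edgeR fit of all 8 libraries. On the log2 scale the difference was 10.87 for Xist, -12.41 for Eif2s3y, -12.06 for Kdm5d and 0.83 for Eif2s3x, all sex-linked, and the CD embryos were the libraries with Y transcripts. It was 1.82 for Rpl3-ps1, 3.33 for Rpl3-ps2, 3.29 for Rpl34-ps1, 2.06 for Rps27a-ps2 and 5.98 for Gm6166, pseudogenes or predicted genes whose reads other loci may share. It was 2.65 for Pm20d1 and -2.05 for Actc1.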

How the results depend on the processing

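The count of genes that differed, 14022, stayed within 1.5 times of itself with DESeq2 size factors, library totals alone, no filter, the DESeq2 Wald test (13292), the null line alone (12881), the CD line alone (10669), no line term and a fit of all 24 libraries. It was 8493 with 10 CPM or more in 4 libraries, where fewer genes are tested, and 6324 with glmTreat, which tests against 2-fold. With that filter the count at 2-fold or more was 3402 in place of 8045, and the HE count 8600 in place of 14225. Leaving out single libraries gave 13018 to 14453 calls, 7905 to 8531 at 2-fold or more and 13253 to 14817 in HE libraries. The 11 genes that differed between lines became 4 with the filter, 111 with the DESeq2 Wald test and 1 to 176 without single libraries, and the cause was not tested. Replicate numbers are not taken to pair the samples: same-numbered deviations correlated at -0.003 in the null line and -0.083 in the CD line. With a replicate block the counts were 13405, 7801 at 2-fold or more, 4 for the line difference and 13648 in HE libraries.

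Of 2658 values of named genes under the alternatives, 2579 kept direction and call, 40 lost the call, 10 gained one and 29 changed sign. The cause was not tested. With library totals alone the log2 fold changes that changed sign were -0.0515 for Eif2s3x, -0.0442 for Tbx20, -0.16 for Hoxc8, -0.27 for Eef1a1 and -0.28 for Pm20d1. In the null line alone the log2 fold changes that changed sign were -0.26 for Xist, -0.13 for Rpl3-ps1, -0.43 for Rpl3-ps2, -0.62 for Rpl34-ps1, -0.15 for Eif2s3x, -1.62 for Gm6166, 0.10 for Gata6, -0.018 for Eef1a1, 0.086 for Ets1, 0.16 for Bmp4 and -1.29 for Pm20d1. In the CD line alone the log2 fold changes that changed sign were 0.60 for Rps27a-ps2, -0.20 for Tbx20 and -0.52 for Hoxc8. Without single libraries the log2 fold change ran from -0.0233 to 0.40 for Hoxc8, -0.000591 to 0.0804 for Eef1a1, -0.16 to 0.0348 for Ets1, -0.27 to 0.10 for Bmp4 and -0.0572 to 0.11 for Pm20d1. Of 1536 counts of list members, 79 moved by more than 1.5 times. Depth limits a gene with no count in a tissue to a bound of 3 counts over its 4 libraries.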
